A study of Mus musculus with 8 samples.

Results

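Binding of the transcription factor subunit NF-YA was examined at genes of the proteasome and of the ubiquitin pathway in mouse muscle stem cells (MuSCs). The members are all NF-YA peaks that the deposited table assigned to a protein-coding gene with a symbol of the families *Psma* to *Psmg*, *Ube1* to *Ube4*, *Usp*, *Cul*, *Fbxo*, *Fbxl*, *Fbxw*, *Anapc* or *Otud*. This rule found 48 of 7196 peaks, which belonged to 41 of the 3978 genes with an assigned peak. Of these genes 34 had 1 peak and 7 had 2 peaks. The rule goes by symbol and therefore also took in *Psmc3ip*, a cofactor of meiotic recombination that is no proteasome subunit.

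The libraries were made by CUT&RUN, in which a nuclease tethered to an antibody cuts out the DNA around a bound protein. Activated and proliferating MuSCs of C57BL/6 background, cultured in vitro, came from control and Taf4asKO mice, with 2 NF-YA libraries per genotype. In Taf4asKO mice tamoxifen-dependent Cre under the *Pax7* promoter removes floxed exons of *Taf4a*, a subunit gene of the general transcription factor TFIID, in adult MuSCs. By the methods of the study the controls were littermates with the same floxed *Taf4a* alleles, with or without the Cre allele, while the labels also call them WT. The description of the strains names tamoxifen treatment for Taf4asKO mice only, so that tamoxifen may differ along with genotype. Whether any control received it was not otherwise given in the sources used here. Nor was it given how many animals went into a library and whether the 2 libraries of a genotype came from separate animals. The p-values therefore measure the spread between these libraries, which may be technical. The comparison asks whether NF-YA occupies the same sites when TAF4A is lost.

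The proteasome is the protease that degrades proteins tagged with ubiquitin. Its 20S core, a barrel of alpha and beta subunits, holds the proteolytic sites, and the 19S regulatory particle, made of ATPase (*Psmc*) and non-ATPase (*Psmd*) subunits, recognises, unfolds and feeds in the substrate. Ubiquitin is passed from an E1 to an E2 enzyme and then, by an E3 ligase, to the substrate. Cullins are scaffolds of modular E3 ligases, F-box proteins pick their substrates, and the anaphase-promoting complex (APC/C) is a related ligase of the cell cycle, whereas USP and OTUD proteases remove ubiquitin. NF-Y binds the pentamer CCAAT, typically close to the start of genes, and many genes of cell division carry it.

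The sequences under the strongest peak of each role are shown to let the pentamer that NF-Y binds be seen in place. They are from the mouse genome GRCm38 (mm10), 5′ to 3′ on the strand of the gene, either as the whole peak or as its central 300 bases. Capitals mark CCAAT or its reverse complement ATTGG.

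Psmb3, chr11:97703237-97703484, plus strand: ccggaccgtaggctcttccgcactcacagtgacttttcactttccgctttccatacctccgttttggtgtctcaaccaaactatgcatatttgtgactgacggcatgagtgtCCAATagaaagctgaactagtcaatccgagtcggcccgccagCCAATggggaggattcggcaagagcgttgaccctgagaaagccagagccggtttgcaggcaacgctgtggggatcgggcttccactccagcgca
Psmc3, chr2:91061088-91061296, plus strand: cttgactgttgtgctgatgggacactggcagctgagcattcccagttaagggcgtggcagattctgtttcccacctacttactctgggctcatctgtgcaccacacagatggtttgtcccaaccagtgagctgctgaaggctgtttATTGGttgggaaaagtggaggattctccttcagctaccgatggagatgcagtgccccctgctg
Psmd3, chr11:98682221-98682512, plus strand: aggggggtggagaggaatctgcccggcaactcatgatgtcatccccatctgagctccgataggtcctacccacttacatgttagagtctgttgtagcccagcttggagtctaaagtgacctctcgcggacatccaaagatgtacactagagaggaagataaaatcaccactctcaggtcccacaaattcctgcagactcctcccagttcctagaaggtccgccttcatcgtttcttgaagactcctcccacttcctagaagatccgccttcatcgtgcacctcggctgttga
Ube2s, chr7:4812718-4813017, minus strand: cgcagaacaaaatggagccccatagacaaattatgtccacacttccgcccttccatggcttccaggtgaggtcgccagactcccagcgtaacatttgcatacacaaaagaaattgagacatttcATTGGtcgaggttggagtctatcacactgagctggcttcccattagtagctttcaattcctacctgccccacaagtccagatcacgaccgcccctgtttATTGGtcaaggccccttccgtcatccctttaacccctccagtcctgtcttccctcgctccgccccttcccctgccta
Cul3, chr1:80340880-80341114, minus strand: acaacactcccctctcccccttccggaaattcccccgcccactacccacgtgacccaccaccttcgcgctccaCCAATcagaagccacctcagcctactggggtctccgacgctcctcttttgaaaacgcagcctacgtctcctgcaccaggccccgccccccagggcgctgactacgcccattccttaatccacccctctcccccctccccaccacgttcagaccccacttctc
Fbxo24, chr5:137628742-137629041, minus strand: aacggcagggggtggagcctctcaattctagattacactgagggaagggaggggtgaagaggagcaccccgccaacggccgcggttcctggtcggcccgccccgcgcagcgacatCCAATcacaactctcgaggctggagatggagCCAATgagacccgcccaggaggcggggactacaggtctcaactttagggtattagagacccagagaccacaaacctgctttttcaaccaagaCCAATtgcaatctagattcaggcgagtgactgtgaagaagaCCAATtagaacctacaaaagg
Anapc5, chr5:122821204-122821503, minus strand: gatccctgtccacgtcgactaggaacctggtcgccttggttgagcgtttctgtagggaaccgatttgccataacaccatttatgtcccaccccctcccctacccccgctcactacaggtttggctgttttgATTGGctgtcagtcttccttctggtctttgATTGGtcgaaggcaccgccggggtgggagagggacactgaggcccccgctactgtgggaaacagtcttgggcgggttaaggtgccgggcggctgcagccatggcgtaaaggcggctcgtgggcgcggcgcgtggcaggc
Usp22, chr11:61175128-61175427, minus strand: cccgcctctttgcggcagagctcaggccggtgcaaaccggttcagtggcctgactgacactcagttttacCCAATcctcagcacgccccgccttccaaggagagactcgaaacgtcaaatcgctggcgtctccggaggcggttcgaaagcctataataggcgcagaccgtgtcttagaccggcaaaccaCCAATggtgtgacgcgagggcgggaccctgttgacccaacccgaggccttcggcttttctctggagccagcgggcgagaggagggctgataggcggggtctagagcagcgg
Otud5, chrX:7841358-7841657, plus strand: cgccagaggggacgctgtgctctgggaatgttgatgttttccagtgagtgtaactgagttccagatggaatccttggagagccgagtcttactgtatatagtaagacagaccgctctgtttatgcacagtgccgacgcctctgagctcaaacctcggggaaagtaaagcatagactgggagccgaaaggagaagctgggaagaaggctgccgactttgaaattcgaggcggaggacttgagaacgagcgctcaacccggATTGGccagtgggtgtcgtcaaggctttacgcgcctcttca
Psmc3ip, chr11:101095404-101095522, minus strand: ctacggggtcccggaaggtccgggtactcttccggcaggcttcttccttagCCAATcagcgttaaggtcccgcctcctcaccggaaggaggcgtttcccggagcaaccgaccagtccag

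The *Fbxo24* stretch held 4 pentamers, all in the CCAAT orientation. The stretches of *Psmb3*, *Ube2s*, *Anapc5* and *Usp22* held 2 each, in the CCAAT orientation for *Psmb3* and *Usp22* and as ATTGG for *Ube2s* and *Anapc5*. The stretches of *Cul3*, *Otud5*, *Psmc3ip* and *Psmc3* held 1. The 292 bases of the *Psmd3* peak held none, although its signal was among the 10 highest of the member peaks.

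For some of the proteasome genes the pentamer nearest the peak centre is shown with its flanks, each on the strand that reads CCAAT, to let the sites of this complex be compared. The *Psmd3* peak has no such site, and *Psmc3* has a site in each of its 2 peaks.

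Psmb3, chr11:97703339-97703363, plus strand: gcatgagtgtCCAATagaaagctga
Psma3, chr12:70974643-70974667, plus strand: gagagcgcagCCAATgggcgagcct
Psmd4, chr3:95042599-95042623, plus strand: gtgctcatcaCCAATcaaagaactc
Psma5, chr3:108257070-108257094, plus strand: cttgtcaagtCCAATcatcgcggcg
Psmc3, chr2:91061224-91061248, minus strand: cttttcccaaCCAATaaacagcctt
Psmc3, chr2:91061930-91061954, minus strand: ctcagctggcCCAATctacagccag

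NF-YA peaks were found at a minority of the families' genes. Of 252 protein-coding family genes in GENCODE M21, 41 had an assigned peak (16.3%, 95% Wilson interval 12.2% to 21.3%), against 3197 of 21938 among all protein-coding genes (14.6%). Among the 39 genes named as proteasome subunits (*Psma* to *Psmd*) there were 7, namely *Psma3*, *Psma5*, *Psmb3*, *Psmc3*, *Psmd3*, *Psmd4* and *Psmd10* (17.9%, 8.98% to 32.7%). None of the 10 activator and assembly genes (*Psme*, *Psmf*, *Psmg*) and none of the 5 *Ube3* and *Ube4* genes had one. E2 enzymes had peaks at 7 of 37 genes, F-box genes at 10 of 77, USP genes at 10 of 56, APC/C genes at 2 of 11, and cullin and OTUD genes at 2 of 8 each. The interval of each of these roles contained the share over all protein-coding genes. These intervals cover counting error only.

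**Figure D1:**
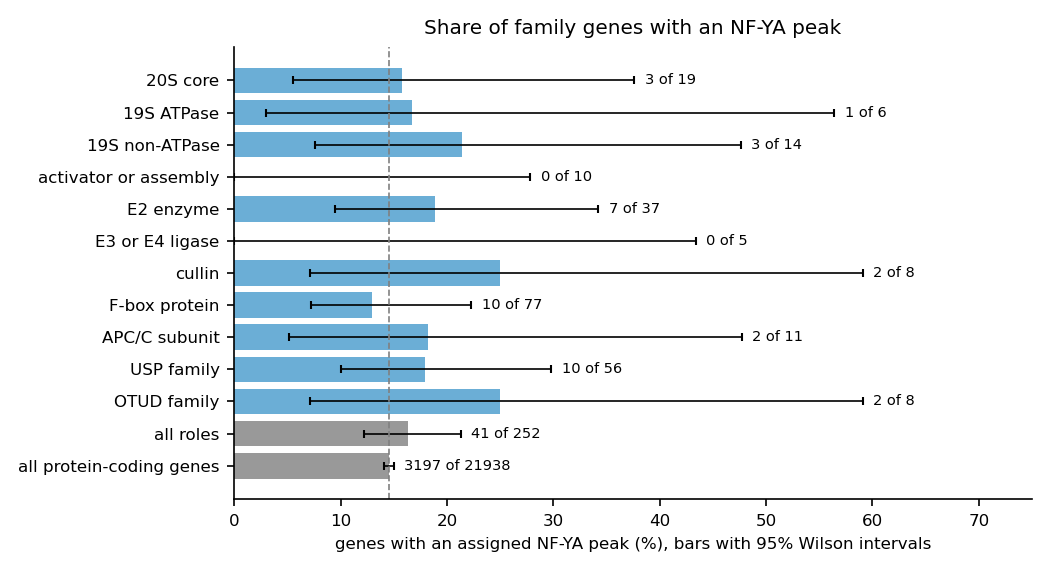
Share of the genes of each role with an assigned NF-YA peak (horizontal axis, percent), as bars with 95% Wilson intervals as whiskers and counts beside them. The dashed line marks the 14.6% of all protein-coding genes, and it lies within the interval of each role plotted. *Psmc3ip*, which is no gene of these roles, is not plotted by itself.

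A table with 1 gene per peak can hide a shared start. Of the 211 family genes without an assigned peak, 8 had a transcript start within 1000 bases of a peak, and for 4 of these the peak had been assigned to another gene. The clearest of these, chosen after its values were seen, was *Psma2*, an alpha subunit gene of the 20S core. A peak assigned to *Mrpl32* was centred 86 bases from its start (chr13:14613055-14613252), with normalised read counts of 51 and 65 in control against 47 and 56 in Taf4asKO. The other such genes were *Usp29*, *Fbxl12* and *Anapc13*. In the other direction, 9 member peaks had the start of another gene within 1000 bases, which was protein-coding in 4 cases (*Atg4a* beside *Psmd10*, *Lrch4* beside *Fbxo24*, *BC005624* beside *Usp20* and *Cdca3* beside *Usp5*). The signal at these peaks cannot be given to 1 gene of the pair.

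Most member peaks lay at gene starts. The assigned start was within 1000 bases for 34 of 48 peaks (70.8%, against 67.4% of 3837 peaks of protein-coding genes), and 25 of these 34 were centred upstream of it. By annotation 28 member peaks were outside the gene, 13 in an intron, 6 in an exon with UTR and 1 in another exon. The median normalised read count, which is the mean over 4 libraries, was 68.75 for the 34 peaks near a start and 9.0 for the 14 peaks farther away. Member peaks were between 75 and 625 bases wide, and the median was 196.5.

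The central 200 bases contained CCAAT in 41 of 48 member peaks (85.4%, Wilson interval 72.8% to 92.8%). The share was 83% for peaks of protein-coding genes and 78.5% for all peaks, so that the interval of the members contains both. At least 2 pentamers were found in 25 member peaks (52.1%, 38.3% to 65.5%) and in 36.4% of all peaks. Among peaks near a start the comparison was 61.8% (45% to 76.1%) against 50.9%, which lies within the interval. The 7 member peaks without the pentamer in this window were those of *Psmd3*, *Fbxw11*, *Otud5* and *Usp5*, the weaker peaks of *Fbxo31* and *Cul3*, and 1 of the peaks of *Usp31*. The peak of *Otud5* has 1 pentamer outside this window, in the stretch shown above.

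Near starts, the 28 peaks with the motif held 61 pentamers, 44 of them upstream of the start, with a median position of -60 bases. The strand was that of the gene for 35 and the opposite for 26 of them. Of 41 neighbouring pairs in all member peaks, 8 were 30 to 35 bases apart (19.5%, against 15.2% of 3658 pairs in all peaks). The SP1-type box GGGCGG, searched on both strands, was in 17 of 48 member peaks (35.4%, 23.4% to 49.6%), in 44.5% of peaks of protein-coding genes and in 27.8% of all peaks. The antioxidant-type element TGACNNNGC, the kind of site through which NRF1 and NRF2 are known to act on proteasome genes, was in 5 member peaks (10.4%), in 12% of peaks of protein-coding genes and in 13.2% of all peaks. The cell cycle element TTTGAA was in 5 member peaks (10.4%), in 8.31% of peaks of protein-coding genes and in 9.46% of all peaks. A match describes these letters and is no test of a factor.

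**Figure D2:**
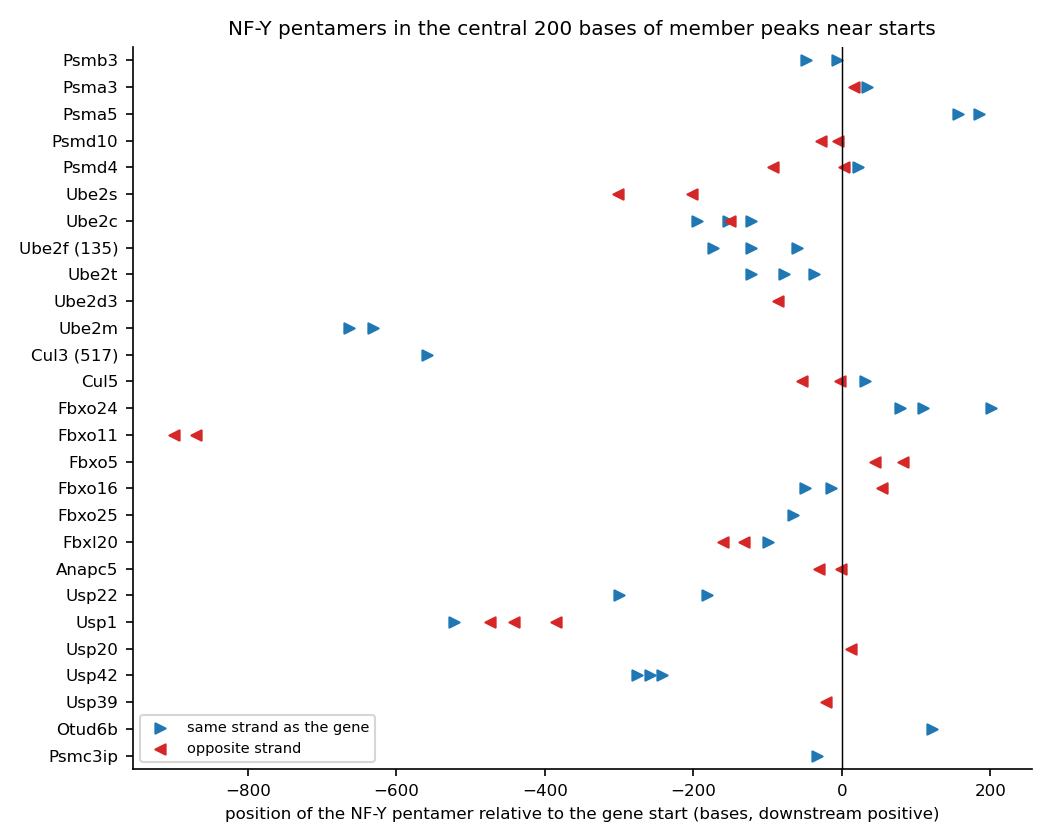
Position of each CCAAT pentamer relative to the assigned gene start (horizontal axis, bases) in the central 200 bases of 27 member peaks near a start that contain it, with genes in rows and the strand given by the direction of the marker. Of the 59 pentamers plotted 44 are upstream of the start.

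Among promoters, from 250 bases before to 50 bases from the start, CCAAT was present in 25 of 33 member genes with a peak near the start (75.8%) and in 61 of 211 family genes without a peak (28.9%). For proteasome subunit genes these counts were 4 of 6 and 11 of 32, and over all protein-coding genes 39% of promoters contained the pentamer. TGACNNNGC was in 0 of 6 proteasome subunit promoters with a peak and in 6 of 32 without, against 12.5% of all promoters. The peaks were called from the same libraries and follow CCAAT over all protein-coding genes too, with 82.3% of promoters with a peak against 34% of those without, so that these shares describe the families beside the background and are no finding about them.

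Signal at the member peaks covered a wide range. The mean normalised read count ran from 2.75 to 815.5 with a median of 42.62, against 17.25 for all peaks and 34.5 for peaks of protein-coding genes. Of 48 member peaks 11 had a mean of at least 100 (22.9%, against 22.6% for protein-coding genes) and 12 had a mean under 10 (25% against 19.1%) and were not tested. The order by control mean was led by *Fbxo24* with 986.5, which ranked as number 8 of all 7196 peaks, and by *Ube2s* with 402.0, *Usp22* with 372.0, *Usp1* with 314.0 and *Ube2c* with 307.0. These are levels per peak. Per 100 bases of peak width the control level was 163 at *Fbxo24*, 76.9 at *Usp22*, 70.7 at *Usp1*, 68.3 at *Psmb3* and 67 at *Ube2s*, so that *Fbxo24* kept the first place and *Psmb3*, with 248 bases narrower than the other peaks named here, moved up beside them. The median per 100 bases was 19.8 for member peaks, 18.5 for peaks of protein-coding genes and 10.3 for all peaks.

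**Figure D3:**
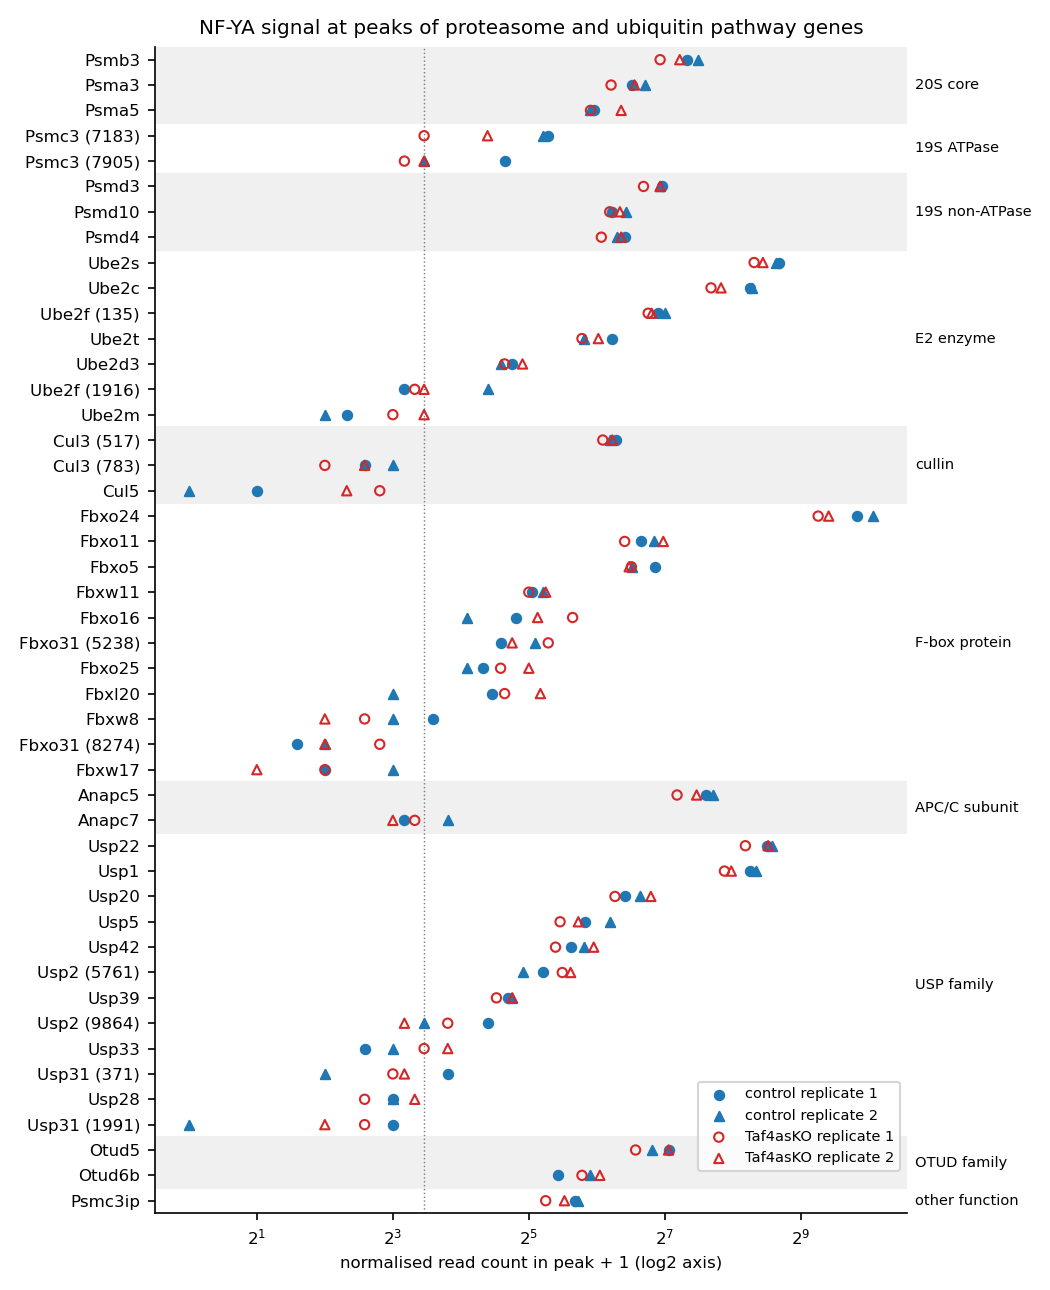
Normalised read count plus 1 in each of the 4 NF-YA libraries (horizontal axis, log2 scale) for 46 member peaks, grouped by role, with the distance to the start in brackets for genes with 2 peaks. The dotted line is a value of 10, the minimum mean for the test, and most peaks of the 2 genotypes lie close together, with *Fbxo24* highest at 903 and 1070 in control against 610 and 679 in Taf4asKO.

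The libraries differed in their reads in peaks along with genotype. From the value of 1 read whose rounded multiples best matched the values, reads in peaks were estimated at 351694 and 111267 in control. In Taf4asKO they were estimated at 735063 and 505389. The highest was 6.61 times the lowest, so that reads in peaks and genotype cannot be told apart. The uniquely mapped reads that the paper gives differed less, and were also higher in both Taf4asKO libraries than in both control libraries. The median member peak held 38.3 and 13.49 reads in control replicates 1 and 2, and 97.4 and 66.83 in Taf4asKO replicates 1 and 2. In control replicate 2 a read was worth 3.261 units, 3 member peaks were at 0 there, and a count of 0 allows a value of up to 9.78. Among the 36 tested member peaks Taf4asKO replicate 1 was below replicate 2 at 31, while control replicate 1 was below replicate 2 at 19. At 7 peaks inside the targeted gene, listed as *Taf4*, the summed signal was 999 and 1324 in control against 98 and 172 in Taf4asKO, a difference in the direction of the labels that is a binding signal and no measure of the deletion. Levels of MuSC marker genes cannot be read from a binding assay and were not checked.

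At nearly all of these genes no genotype difference passed the test. The test can miss large differences, since it called 89 of 170 tested peaks with a simulated log2 change of 2. Values were compared with limma on log2(value + 1) for the 4746 peaks with a mean of at least 10, of which 36 were member peaks. *Fbxo24* alone passed an adjusted p of 0.05 (1 of 36 member peaks, against 0.948% of all tested peaks, and 0.611% for lower calls). Without adjustment 7 member peaks were under 0.05, 5 lower and 2 higher in Taf4asKO, against 17.9% of all tested peaks (10.9% lower and 6.95% higher). The 2 genotypes did not overlap at 12 member peaks that were lower in Taf4asKO (28.6% of all tested peaks) and at 4 that were higher (19.3% of all), and they overlapped at the other 20. Among member peaks with a mean above 10, the ratio of means was beyond 2 at 1 peak in each direction. These were *Psmc3*, lower (3.13% of all 4689 such peaks), and *Fbxl20*, higher (4.29%).

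The fitted fold changes of most member peaks were within 0.5 of 0. The median log2 fold change was -0.14, against -0.04 for all tested peaks, with a range from -1.32 to 1.18. In all 29 of 36 were within 0.5 of 0 (80.6%, against 72.8% of all tested peaks). It was below 0 for 27 of 36 (75%, against 53.8%). Among strong peaks with a mean of at least 100 all 11 member peaks were below 0 with a median of -0.28, but so were 84.7% of the 971 such peaks in all, with a median of -0.22. Other scalings shifted this direction. With equal totals 18 of 36 were below 0 and the median was 0.00, and with centring on strong peaks 13 were below 0 and the median was 0.08. The median of all tested peaks moved to 0.10 and 0.17 in the same settings, and to -0.17 with equal medians, where the member median was -0.27. Without Taf4asKO replicate 1, 20 of 36 were below 0 with a median of -0.02, and without Taf4asKO replicate 2, 30 were, with a median of -0.26. Without control replicate 1 there were 26 (median -0.13), and without control replicate 2, the shallowest library, 22 (median -0.15). The median of all tested peaks in these 4 settings ran from -0.09 to 0.00.

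**Figure D4:**
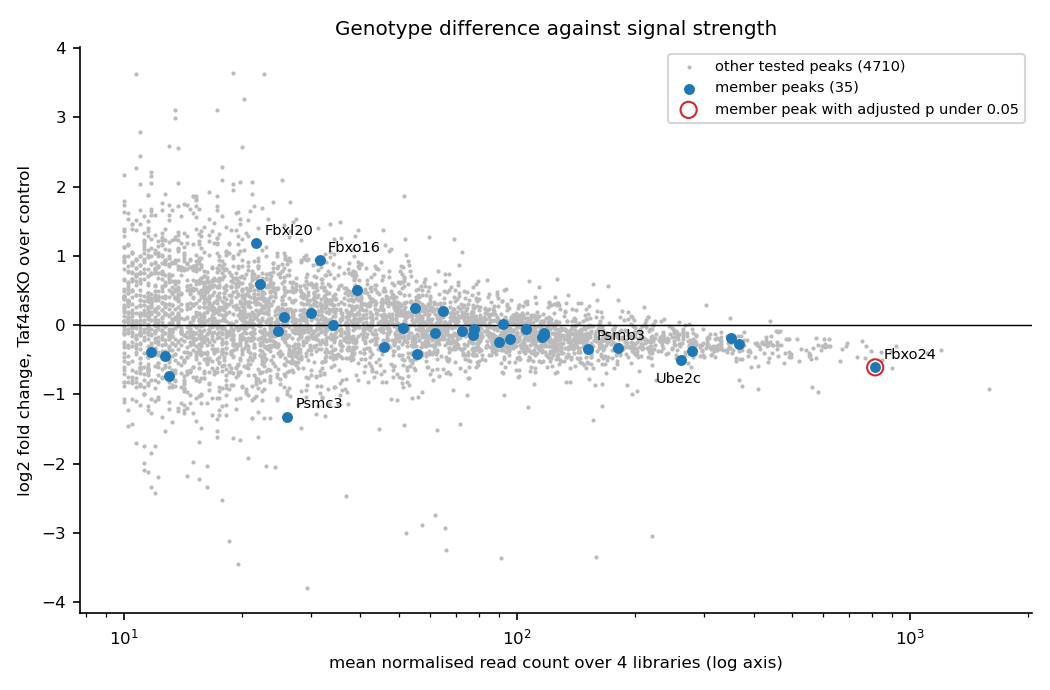
Log2 fold change of Taf4asKO over control (vertical axis) against the mean normalised read count (horizontal axis, log scale) for 35 tested member peaks (blue) and the other tested peaks (grey). The member peaks lie within the cloud of all peaks, and the circled peak of *Fbxo24*, at -0.61, is the member peak with an adjusted p under 0.05.

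*Psmb3*, a beta subunit of the 20S core, had the strongest peak of the proteasome genes (chr11:97703237-97703484, centred 38 bases upstream of the start). Its values were 160 and 179 in control against 121 and 148 in Taf4asKO. The genotypes did not overlap, with means of 169.5 ± 13.4 and 134.5 ± 19.1 (SD, n = 2). The log2 fold change was -0.34 (SE 0.17, adjusted p = 0.317 by limma with Benjamini-Hochberg), and the exact permutation test (two-sided) reached p = 0.333, the smallest p that 2 against 2 libraries allow.

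The alpha subunit genes had weaker peaks. At *Psma3* (chr12:70974519-70974870, in an exon with UTR 74 bases downstream of the start) the values were 91 and 104 in control against 73 and 93 in Taf4asKO. At *Psma5* (chr3:108256954-108257161, in an exon with UTR 132 bases downstream) they were 61 and 59 in control against 59 and 81 in Taf4asKO. The genotypes overlapped at both, with log2 fold changes of -0.24 (SE 0.20) and 0.20 (SE 0.22). The *Psma5* peak is also 72 bases from the start of an antisense gene, *1700010K24Rik*.

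Of the 19S ATPase genes, *Psmc3*, which encodes an ATPase of the ring that unfolds substrates, had 2 peaks, and both lay in introns at 7183 and 7905 bases from the start. The first (chr2:91061088-91061296) had 38 and 36 in control against 10 and 20 in Taf4asKO. The genotypes did not overlap, with a log2 fold change of -1.32 (SE 0.36, adjusted p = 0.110 by limma). This was the largest decrease among the tested member peaks but did not pass the test as reported. It passed with equal medians (adjusted p = 0.0281 by limma) and with weights from reads (0.0267), and not without the minimum (0.292), without the variance trend (0.202) or without a library (0.314 to 0.739). The value was -0.86 without Taf4asKO replicate 1 and -1.79 without Taf4asKO replicate 2. The values rest on an estimated 36.4 and 11 reads in control and 23.2 and 29.4 in Taf4asKO, in replicate order. The second (chr2:91061838-91061990) had 24 and 10 in control against 8 and 10 in Taf4asKO, with overlap and a log2 fold change of -0.74 (SE 0.49), which was -0.14 without control replicate 1 and -1.33 without control replicate 2. The peaks are 541 bases apart and share the same libraries and gene, and the second also lies inside the annotated *Slc39a13*.

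The non-ATPase genes *Psmd3*, *Psmd4* and *Psmd10* had peaks at their starts. *Psmd3* encodes a lid subunit, and its peak (chr11:98682221-98682512, 187 bases upstream) gave 124 and 121 in control against 102 and 121 in Taf4asKO. *Psmd4*, whose product is a ubiquitin receptor, had 84 and 78 in control against 66 and 81 in Taf4asKO (chr3:95042515-95042748, 18 bases upstream). *Psmd10*, which encodes gankyrin, a chaperone of 19S assembly, had 74 and 85 in control against 72 and 80 in Taf4asKO (chrX:140956616-140956906, 33 bases upstream). The genotypes overlapped or touched at all 3 peaks, and the log2 fold changes were -0.14 (SE 0.17), -0.14 (SE 0.20) and -0.06 (SE 0.19). Over the 8 tested peaks of proteasome subunit genes the median log2 fold change was -0.19 and 7 were below 0, against 53.8% of all tested peaks. This count depends on the scaling. With centring on strong peaks *Psmd10* was at 0.16, and *Psmd3* and *Psmd4* at 0.08. *Psma3* (-0.02), *Psmb3* (-0.12) and both *Psmc3* peaks stayed below 0. None of the 8 passed the test as reported (0.948% of all). The stronger *Psmc3* peak alone was lower at an unadjusted p under 0.05 by limma, against 10.9% of all. *Psmc3ip* (chr11:101095404-101095522) had 50 and 52 in control against 37 and 45 in Taf4asKO, with no overlap and a log2 fold change of -0.31 (SE 0.23).

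E2 enzymes gave 9 peaks at 7 genes, of which 7 were tested. The strongest were at *Ube2s* and *Ube2c*, which encode the E2 enzymes that work with the APC/C. At *Ube2s* (chr7:4812568-4813167, 278 bases upstream) the values were 409 and 395 in control against 317 and 347 in Taf4asKO. At *Ube2c* (chr2:164769423-164770018, 177 bases upstream) they were 304 and 310 in control against 204 and 226 in Taf4asKO. At neither peak did the genotypes overlap. The log2 fold changes were -0.28 (SE 0.12, adjusted p = 0.272 by limma) and -0.51 (SE 0.13, adjusted p = 0.107), so that neither passed the test as reported. *Ube2c* passed with equal medians (-0.64, adjusted p = 0.0198 by limma) and with weights from reads (-0.51, 0.0464), and not in the other settings, with -0.29 and an adjusted p of 0.128 with centring, 0.285 without the minimum and 0.322 without the variance trend. The *Ube2s* value was -0.13 with equal totals and -0.05 with centring.

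Among E2 enzymes of ubiquitin-like modifiers, *Ube2f*, which conjugates NEDD8, the modifier that activates cullins, had 119 and 127 in control against 107 and 111 in Taf4asKO at 135 bases upstream (chr1:91250040-91250297). Its second peak at 1916 bases upstream (chr1:91248304-91248471) had 8 and 20 in control against 9 and 10 in Taf4asKO. The genotypes did not overlap at the stronger peak, with a log2 fold change of -0.17 (SE 0.16), and overlapped at the weaker. *Ube2m*, a further NEDD8 enzyme, had 4 and 3 in control against 7 and 10 in Taf4asKO and was not tested. *Ube2t* and *Ube2d3* had log2 fold changes of -0.12 and 0.11 with overlapping genotypes.

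Among cullin genes *Cul3* and *Cul5* had peaks. *Cul3*, the scaffold of ligases with BTB adaptors, had 77 and 72 in control against 67 and 74 in Taf4asKO at 517 bases upstream (chr1:80340880-80341114). The genotypes overlapped, with a log2 fold change of -0.08 (SE 0.19). A weak peak 109 bases away (chr1:80341224-80341302) had 5 and 7 in control against 3 and 5 in Taf4asKO. The *Cul5* peak had values of 1 and 0 in control against 6 and 4 in Taf4asKO, too low to be tested, and lies under the 9.78 that a count of 0 allows in control replicate 2.

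The peak with the highest signal of all families was at *Fbxo24*, a gene for an F-box protein known from the testis (chr5:137628589-137629193, in an exon with UTR 111 bases downstream of the start). Its values were 903 and 1070 in control against 610 and 679 in Taf4asKO. Both Taf4asKO libraries were below both control libraries, with means of 986.5 ± 118 and 644.5 ± 48.8 (SD, n = 2), a ratio of 0.653. The log2 fold change was -0.61 (SE 0.12, adjusted p = 0.0473 by limma with Benjamini-Hochberg), which compares with the median of -0.22 over strong peaks. The peak passed under all 3 other scalings, with -0.74 at equal medians (adjusted p = 0.00471 by limma), -0.47 at equal totals (0.0276) and -0.39 with centring (0.0412). It lost the call without any 1 of the 4 libraries, at fold changes from -0.73 to -0.49 (adjusted p from 0.191 to 0.739), and at an unmoved -0.61 without the minimum (0.285) and without the variance trend (0.284). The start of *Lrch4*, which runs the other way, is 230 bases from the centre, so that the signal cannot be given to *Fbxo24* alone.

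The other F-box genes included the largest increases among the tested member peaks. At *Fbxl20* (chr11:98150498-98150614, 153 bases upstream) the values were 21 and 7 in control against 24 and 35 in Taf4asKO. The genotypes did not overlap, with a log2 fold change of 1.18 (SE 0.47, adjusted p = 0.233 by limma), but the control value of 7 is an estimated 2.1 reads, and without control replicate 2 the ratio of means of 2.11 fell under 2 and the fold change was 0.45. At *Fbxo16* (chr14:65266455-65266709, 36 bases upstream) the values were 27 and 16 in control against 49 and 34 in Taf4asKO, also without overlap (log2 fold change 0.94, SE 0.33, adjusted p = 0.181 by limma), and the fold change was 0.58 without control replicate 2 and 1.30 without control replicate 1. At *Fbxo25* (chr8:13907641-13907778) they were 19 and 16 in control against 23 and 31 in Taf4asKO, with a log2 fold change of 0.59 (SE 0.32). *Fbxl20* and *Fbxo25* have means from 10 to 30, where the median log2 fold change was 0.12 over all tested peaks and -0.24 over the 8 tested member peaks. *Fbxo16* has a mean of 31.5.

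The remaining tested F-box peaks had smaller fold changes. *Fbxo5*, whose product inhibits the APC/C, had 115 and 91 in control against 90 and 88 in Taf4asKO, with no overlap by 1 unit and a log2 fold change of -0.20 (SE 0.19). *Fbxo11* had 99 and 114 in control against 84 and 125 in Taf4asKO, and *Fbxw11*, a substrate receptor for phosphorylated degrons, had 32 and 36 in control against 31 and 37 in Taf4asKO. The genotypes overlapped at both. *Fbxo31* had 2 intronic peaks, with 23 and 33 in control against 38 and 26 in Taf4asKO at the stronger (chr8:121573433-121573703) and 2 and 3 in control against 6 and 3 in Taf4asKO at the weaker (chr8:121570485-121570579). *Fbxw8* had 11 and 7 in control against 5 and 3 in Taf4asKO, and *Fbxw17* had 3 and 7 in control against 3 and 1 in Taf4asKO. Both, and the weaker *Fbxo31* peak, were too weak to be tested.

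*Anapc5*, a scaffold subunit of the APC/C, had 193 and 209 in control against 144 and 176 in Taf4asKO (chr5:122821041-122821665, 14 bases upstream). Both Taf4asKO values were below both control values, with a log2 fold change of -0.33 (SE 0.16, adjusted p = 0.299 by limma). *Anapc7* had a weak peak 3173 bases upstream with 8 and 13 in control against 9 and 7 in Taf4asKO.

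The USP family had 12 peaks at 10 genes, and 8 of these peaks were tested. *Usp22*, the ubiquitin protease of the SAGA coactivator, had 362 and 382 in control against 290 and 366 in Taf4asKO (chr11:61175036-61175519, 223 bases upstream). The higher Taf4asKO value was above the lower control value, with a log2 fold change of -0.19 (SE 0.14). This fold change was -0.02 without Taf4asKO replicate 1 and -0.36 without Taf4asKO replicate 2. *Usp1*, which acts on FANCD2 and PCNA in DNA repair, had 305 and 323 in control against 234 and 251 in Taf4asKO (chr4:98923152-98923595, 436 bases upstream). Here the genotypes were apart, with a log2 fold change of -0.37 (SE 0.13, adjusted p = 0.181 by limma). The fold change was -0.50 with equal medians, where the peak passed (adjusted p = 0.0475 by limma), -0.23 with equal totals (0.234) and -0.15 with centring on strong peaks (0.372).

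*Usp2* had 2 intronic peaks with fold changes of opposite sign. At 5761 bases from the start (chr9:44072637-44072926) the values were 36 and 29 in control against 44 and 48 in Taf4asKO, with no overlap and a log2 fold change of 0.50 (SE 0.24, adjusted p = 0.313 by limma). At 9864 bases (chr9:44076785-44076984) they were 20 and 10 in control against 13 and 8 in Taf4asKO, with overlap and a log2 fold change of -0.44 (SE 0.48). The difference between the peaks was not tested. *Usp5* had 56 and 72 in control against 43 and 52 in Taf4asKO without overlap, at a log2 fold change of -0.42 (SE 0.23). *Usp20*, *Usp39* and *Usp42* overlapped, with log2 fold changes of 0.01, -0.09 and -0.04. *Usp31* had 2 weak peaks, with 13 and 3 in control against 7 and 8 in Taf4asKO at 371 bases (chr7:121707570-121707677) and 7 and 0 in control against 5 and 3 in Taf4asKO at 1991 bases (chr7:121705223-121705301). *Usp28* and *Usp33* were too weak to be tested.

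In the OTUD family *Otud5* had 132 and 111 in control against 94 and 132 in Taf4asKO (chrX:7841201-7841814, in an exon 144 bases downstream). *Otud6b* had 42 and 59 in control against 54 and 65 in Taf4asKO (chr4:14826418-14826682, in an exon with UTR). The genotypes overlapped at both, with log2 fold changes of -0.12 (SE 0.20) and 0.25 (SE 0.24). The *Otud6b* value was 0.01 without control replicate 1 and 0.49 without control replicate 2.

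**Figure D5:**
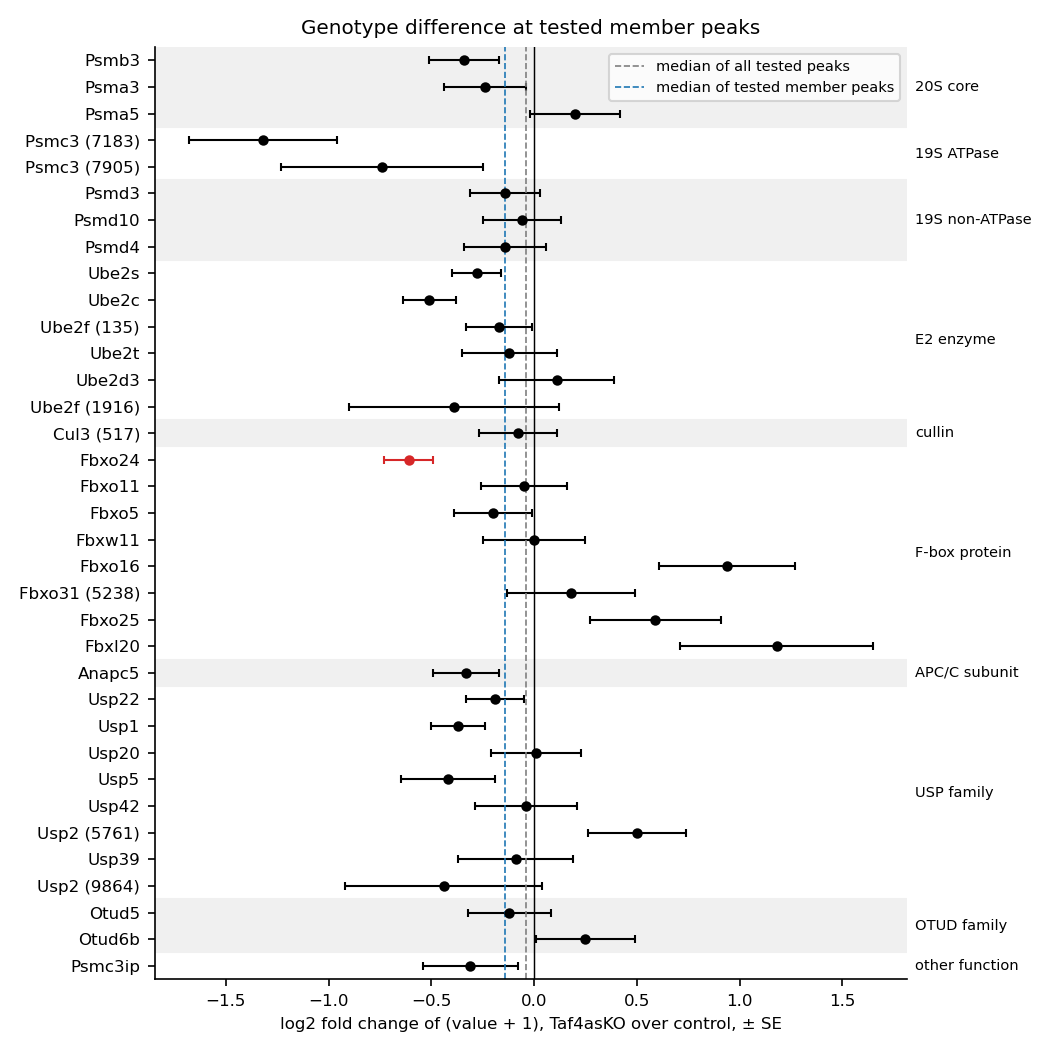
Log2 fold change of Taf4asKO over control with its SE (horizontal axis) for 35 tested member peaks, ordered by role, with *Fbxo24* in red as the peak that passed the test. The dashed lines are the medians of the 36 tested member peaks (-0.14) and of all tested peaks (-0.04), and most peaks lie near these lines.

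The other genes of the pathway were taken from 11 lists of 205 symbols that the rule does not reach. Of these genes 35 had 45 peaks, 41 of which were tested, and 0 passed the test in either direction, against the 0.948% of all tested peaks. By limma 7 of the 41 were lower and 1 higher at an unadjusted p under 0.05, against 10.9% and 6.95% of all tested peaks. The median log2 fold change was -0.12, with 26 below 0 and 15 above, against 53.8% below 0 over all tested peaks. The list of genes that encode ubiquitin itself had 3 tested peaks with a median of -0.06. Among them *Ubb* had 86 and 68 in control against 65 and 83 in Taf4asKO, with overlap and a log2 fold change of -0.06 (SE 0.21).

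Regulators and partners of the member genes also had peaks. *Nfe2l1*, which encodes NRF1, the activator of proteasome genes when proteasome activity falls short, had 296 and 287 in control against 268 and 269 in Taf4asKO at its start, with no overlap and a log2 fold change of -0.12 (SE 0.13). Over the 5 tested peaks of NRF1 and NRF2 regulators the median was 0.13, and the 1 tested peak of a proteasome accessory gene, *Zfand2a*, was at 0.16. Partners and adaptors of cullins had 8 tested peaks with a median of -0.02, with 4 below 0 and 4 above. The strongest, 9879 bases from the start of *Dcun1d4*, had 353 and 427 in control against 279 and 314 in Taf4asKO. The genotypes did not overlap there, with a log2 fold change of -0.39 (SE 0.14, adjusted p = 0.19 by limma). *Rbx1*, the RING subunit of cullin ligases, had 73 and 46 in control against 59 and 65 in Taf4asKO at the stronger of its peaks. At this *Rbx1* peak the genotypes overlapped (log2 fold change 0.09, SE 0.25). Its weaker peak had 20 and 26 in control against 12 and 16 in Taf4asKO, with no overlap and a log2 fold change of -0.68 (SE 0.35, adjusted p = 0.330 by limma). The 3 tested peaks of APC/C genes with other symbols had a median of -0.31. The strongest, at the subunit gene *Cdc23*, had 159 and 140 in control against 144 and 150 in Taf4asKO, with overlap and a log2 fold change of -0.02 (SE 0.16). *Cdc20*, the mitotic activator of the APC/C, had 104 and 88 in control against 78 and 76 in Taf4asKO, with no overlap and a log2 fold change of -0.31 (SE 0.18). The weak peak of *Mad2l2* had 29 and 3 in control against 6 and 5 in Taf4asKO, with overlap and a log2 fold change of -0.76 (SE 0.85).

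The remaining lists held ligases, proteases and neighbouring pathways. Other E3 ligases had 8 tested peaks with a median of -0.22, and *Uhrf1*, a ligase of DNA methylation maintenance, had 118 and 108 in control against 75 and 66 in Taf4asKO at 1 of its peaks, with no overlap (log2 fold change -0.67, SE 0.18, adjusted p = 0.110 by limma). Its other peak had 84 and 85 in control against 75 and 91 in Taf4asKO, with overlap and a log2 fold change of -0.03 (SE 0.19). Other deubiquitinases had 5 tested peaks with a median of -0.02, with 3 below 0 and 2 above. Among them was *Stambp*, the 1 peak of these lists that was higher at an unadjusted p under 0.05 by limma. It had 20 and 10 in control against 25 and 31 in Taf4asKO, with no overlap and a log2 fold change of 0.92 (SE 0.38, adjusted p = 0.241 by limma). Genes of p97 and shuttle factors had 4 tested peaks with a median of -0.47. Among them *Vcp*, which encodes p97, the segregase that extracts ubiquitinated proteins, had 356 and 378 in control against 290 and 301 in Taf4asKO. The genotypes did not overlap at *Vcp*, with a log2 fold change of -0.31 (SE 0.12, adjusted p = 0.226 by limma). The COP9 signalosome had 1 tested peak, at *Cops4*, with a log2 fold change of -0.28, and the NEDD8 and SUMO pathway had 3 with a median of 0.04. No gene of the E1 enzymes list had an assigned peak. The genes named in these lists were chosen after their values were seen.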

How the data were processed

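The 4 NF-YA libraries were analysed, 2 per genotype, and the IgG libraries were not analysed here. The authors aligned the read pairs to mm10 with STAR, called peaks against IgG with MACS, merged them into a common set of 7196 peaks, counted reads with featureCounts, normalised them with DESeq2 and assigned each peak to the nearest gene start within 10000 bases. The deposited score is this normalised read count, rounded to whole numbers. By the counts in the paper, most peaks were called in Taf4asKO replicate 1 and fewest in control replicate 2. The merged set therefore draws unequally on the libraries, and what this means for weak peaks was not tested. In the Taf4asKO libraries a read was worth 0.431 and 0.681, below the unit of rounding, and because whole reads were therefore not recovered, no count model was run.

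The genotype effect was fitted by limma (version 3.58.1, R 4.3.3) to log2(value + 1), which understates changes of low peaks, with a variance trend, where the mean reached 10. p-values were adjusted over all 4746 tested peaks (Benjamini-Hochberg), with a threshold of 0.05. The fit was tested on simulated data, where 89 of 170 tested peaks with a log2 change of 2 were called and 0 unchanged peaks. Peak positions, sequences and motifs were read from GRCm38 and GENCODE M21, in which all 41 member genes have the coordinates of the table. Reads per peak were estimated by dividing values by the value of 1 read, found in 4 of 4 simulated libraries. Named are all *Psm* peaks, peaks that passed, the 10 highest in control, the 5 largest increases and decreases, the strongest of each role and genes with 2 peaks, while others are named to account for every member. The members, gene lists and rules were chosen with earlier results of these data known. Alternatives were other scalings, minimum, pseudocount, threshold, ratio, weights from reads, replicate block, and leaving out each library. Values of 1 member gene, and some other items, are not reported here and not plotted. Intervals cover counting error only.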

Additional observations from a re-analysis of the deposited data

How the results depend on the processing

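The number of member peaks that passed the test was 1 as reported, with an equal-totals scaling, with centring on the peaks of high mean (100 or more), with a pseudocount of 5, with a threshold of 0.1 and near starts. It was 4 with equal medians, 3 with weights from reads, and 0 with no minimum, with no variance trend and without any 1 of the 4 libraries (range 0 to 0). In each of these settings with 0 member peaks limma called 0 of all tested peaks as well, while 1 to 7 member peaks were under an unadjusted p of 0.05, and leaving out a library leaves 1 sample that is assumed to vary like the rest. Over all peaks 45 passed as reported, 315 with equal medians, 61 with equal totals, 80 with centring, 58 with a pseudocount of 5, 218 with weights and 31 with the replicate block, of which 24 were among the 45. The share of lower calls was 64.4% as reported, 82.2% with equal medians, 50.8% with equal totals and 32.5% with centring. With the replicate block 1 member peak passed, *Fbxo24* (adjusted p = 0.0192 by limma). The deviations of replicate 1 from its group mean had r = -0.088 between the genotypes over 4746 peaks. With 2 libraries per genotype this cannot settle whether the replicates were paired.

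With centring the member median was 0.08 and 13 of 36 tested member peaks were lower, a count added after seeing the data. Member peaks beyond a ratio of 2 and higher in Taf4asKO were 0 with equal medians, 2 with equal totals, 2 with centring, 4 with no minimum, 3 with a ratio of 1.5, 0 when both values had to be beyond 2 times both others, and 0 to 2 without a library. Those lower were 2 with equal medians, 3 with no minimum, 3 with a ratio of 1.5, 0 with both values, and 0 to 2 without a library. Member peaks without overlap were 8 of 36 higher with equal totals (32% of all tested peaks), 12 higher (39.8%) and 5 lower (13.9%) with centring, and 19 lower with equal medians (39.9%). The share with CCAAT stayed within its interval in all 3 other windows or sets. The causes were not tested.

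Of 312 values for 26 named peaks 280 kept direction and side of the threshold, 5 newly passed, 6 lost the call and 21 changed sign. The fold change moved by over 1.5 times at 20 of the 26 when some library was left out, at 20 under some other scaling, and at 25 under either. At peaks without overlap, *Psmb3* and *Anapc5* were both at -0.19 with equal totals and without Taf4asKO replicate 1, and at -0.12 and -0.11 with centring. *Fbxl20* ranged from 0.45 to 1.91 without a library, both ends being set by a control library, and *Fbxo25* was at 0.38 without Taf4asKO replicate 2. With equal totals *Psmd10* was at 0.08, *Psmd3* at 0.00, *Otud5* at 0.02 and *Cul3* at 0.06. With centring *Psmd10* was at 0.16, *Psmd3*, *Psmd4* at 0.08, *Ube2f* near its start at 0.05, *Otud5* at 0.10, *Usp22* at 0.03 and *Cul3* at 0.14. Without a library *Psmd10* ranged from -0.16 to 0.04, *Psmd4* from -0.29 to 0.00, *Psma5* from -0.02 to 0.43, *Ube2f* at 1916 bases from -1.0 to 0.22, *Fbxo31* from -0.08 to 0.45, *Otud5* from -0.36 to 0.12 and *Usp2* at 9864 bases from -0.90 to 0.03.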
